A study of Homo sapiens with 8 samples.

Results

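Probes for 9 genes that make, store, move and break down catecholamines were compared between mock arrays and arrays labelled CFC1. The genes were TH, DDC, DBH, GCH1, SLC18A1, SLC18A2, SLC6A2, MAOA and CYB561, taken by symbol from the annotation of the array. All 9 were found, with 14 probes among the 50599 tested, 2 probes for each of 5 genes and 1 for each of the other 4. The study asked how CFC1, a co-receptor for Nodal ligands, affects transcripts of NGP, an established human neuroblastoma line. All 8 samples came from NGP cells that received a lentivirus, carrying a mock construct in 4 samples and CFC1 cDNA in 4, and all were under puromycin. All were grown in RPMI 1640 medium with fetal bovine serum, and the titles call the second group CFC1-overexpressed. The labels do not give the promoter of the construct, whether the cells were clones or pools, or whether the 4 samples of a group were separate cultures. P-values below thus reflect array-to-array spread, part or all of which may be technical.

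Each value is a deposited log2 value of one probe relative to an unstated baseline of that probe. It gives differences between arrays but no level of expression, so whether NGP cells in either group held the defining transcripts of their cell type cannot be read from it. Base 2 is an assumption that sets every fold below. The table holds no background flags, so for a dim probe a fold is fitted and bounds nothing. CFC1 itself was measured by 1 probe, whose position in the transcript is unknown. Its mean in the arrays carrying that label did not lie above mock, the difference being -0.80 (SE 0.278, limma adjusted p = 0.0546), with overlapping groups, so the directions below rest on the labels. Of all 50599 probes, 42.1% were called at an adjusted p under 0.05, 20.0% as higher and 22.1% as lower in the arrays labelled CFC1. The median difference over all probes was -0.135, and -0.0327 when the E1A control spots set the scale. In bulk RNA, fewer cells of a type and less RNA per cell cannot be told apart.

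Catecholamines are made from tyrosine in sympathetic neurons and chromaffin cells, and neuroblastoma arises from the same lineage. Tyrosine hydroxylase makes L-DOPA with tetrahydrobiopterin as cofactor, aromatic L-amino acid decarboxylase turns it into dopamine, and vesicular transporters load dopamine into granules. Inside the granule, dopamine beta-hydroxylase makes noradrenaline with electrons that cytochrome b561 brings across the membrane. Released noradrenaline returns through the noradrenaline transporter and is deaminated by monoamine oxidases.

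The pathway did not shift as a block. Of the 14 probes, 9 were lower in the arrays labelled CFC1, 3 were higher and 2 did not pass the test. Over all probes, 22.1% were called lower and 20.0% higher. The lower probes were those of GCH1, DDC, DBH, SLC18A1 and SLC6A2, and the higher ones were 1 of 2 TH probes, CYB561 and MAOA. Differences of at least 2-fold were called for 8 probes, 6 lower and 2 higher, beside 15.6% of all probes. The groups did not overlap in 12 of the 14, beside 42.6% of all probes. The median difference over the 14 probes was -0.655.

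**Figure D1:**
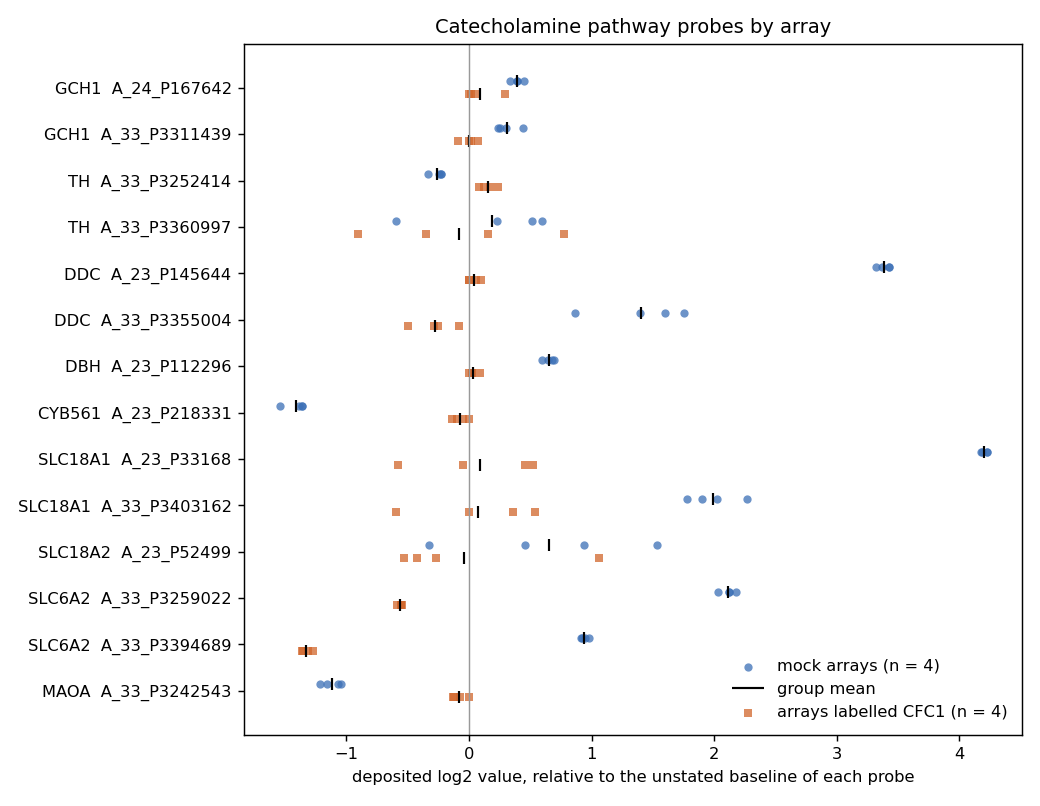
Deposited log2 value, relative to the baseline of each probe (horizontal axis), for the 14 probes in pathway order; circles are the 4 mock arrays, squares the 4 arrays labelled CFC1 and short bars the group means. The groups lie apart for 12 probes and overlap for TH A_33_P3360997 and SLC18A2.

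**Figure D2:**
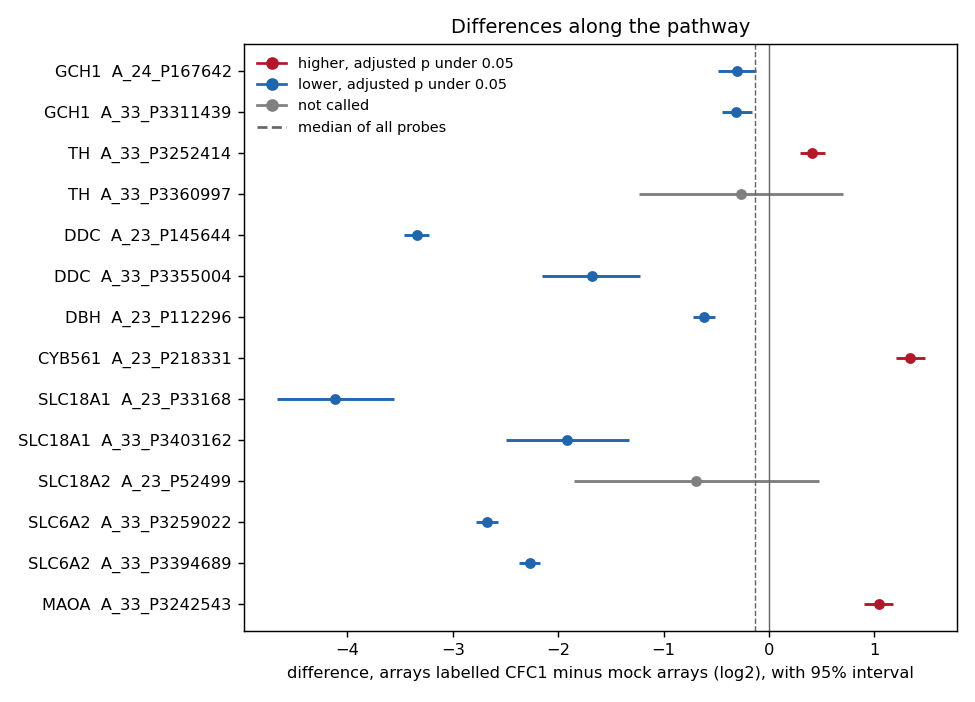
Difference between arrays labelled CFC1 and mock arrays (log2, horizontal axis) for the same 14 probes, with 95% intervals from limma; colour gives the call, and the dashed line is the median of all probes at -0.135. The 6 lowest points belong to DDC, SLC18A1 and SLC6A2, with 2 probes each.

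GCH1, GTP cyclohydrolase, starts the synthesis of the tetrahydrobiopterin cofactor. Its probe A_24_P167642 gave 0.450, 0.331, 0.392 and 0.396 in mock replicates 1 to 4 and 0.000, 0.053, 0.296 and 0.015 in the arrays labelled CFC1. All 4 mock arrays were higher, although CFC1 replicate 3 came close to them. The difference was -0.30 (SE 0.076, adjusted p = 0.0139), or -0.17 relative to the median of all probes. The other probe, A_33_P3311439, gave -0.31 (SE 0.063, adjusted p = 0.00501), also without overlap. The fall of GCH1 depended on the scaling between arrays. After quantile normalization the probes stood at -0.044 (adjusted p = 0.803) and -0.126 (adjusted p = 0.216). The first also lost its call with median centring (-0.259, adjusted p = 0.113) and when the E1A control spots set the scale (-0.199, adjusted p = 0.129). Over the alternatives that kept the probes apart, their adjusted p ran from 0.0013 to 0.803 and from 0.0049 to 0.216. The mean of both GCH1 probes, in a fit of gene means, had an adjusted p of 0.000363.

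TH, the rate-limiting enzyme of the pathway, was slightly higher by one probe. Probe A_33_P3252414 gave -0.242, -0.337, -0.231 and -0.231 in mock replicates 1 to 4 and 0.121, 0.234, 0.085 and 0.169 in the arrays labelled CFC1. All mock arrays lay below the baseline and all arrays labelled CFC1 above it. The difference was 0.41 (95% interval 0.29 to 0.53, adjusted p = 0.000354), a 1.33-fold rise. The second probe, A_33_P3360997, ran from -0.595 to 0.598 over mock arrays and from -0.903 to 0.777 over arrays labelled CFC1. Its groups overlapped and its difference was -0.27 (95% interval -1.23 to 0.70, adjusted p = 0.63), which covers the value of the first probe. The SD of the second probe was 0.544 and 0.716 (n = 4 each), against 0.051 and 0.065 for the first. Averaging both probes left TH at 0.07 (SE 0.216, adjusted p = 0.79), so the rise of TH rests on 1 probe.

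DDC, aromatic L-amino acid decarboxylase, had one of the largest measured falls among the 9 genes. Probe A_23_P145644 gave 3.428, 3.366, 3.423 and 3.318 in mock replicates 1 to 4 and 0.060, 0.099, -0.002 and 0.000 in the arrays labelled CFC1. The groups were more than 3 log2 units apart, while arrays within a group differed little. The difference was -3.34 (SE 0.049, adjusted p = 7.1e-09), 10.2-fold under base 2. Probe A_33_P3355004 gave 1.603, 0.864, 1.393 and 1.758 in mock and -0.253, -0.494, -0.286 and -0.077 in arrays labelled CFC1. It was lower too, by a smaller amount (-1.68, SE 0.197, adjusted p = 0.000236). The gap between both DDC probes within an array shrank from 1.979 ± 0.398 to 0.317 ± 0.212 (SD, n = 4). That change of -1.66 had an exact permutation p of 0.0286, so the probes shifted by unequal amounts.

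DDC has a RefSeq start at each of 2 places, and both windows are shown because its 2 probes differed in size of change. Which start a probe reports on was not determined. The 250 bases before each start are given 5′ to 3′ on the minus strand of GRCh38.p14. The first lies just upstream of the gene (chr7:50565406-50565655) and the second inside its span (chr7:50561072-50561321). Capitals mark the homeodomain core ATTA, searched on both strands, whose matches may overlap.
DDC outer start: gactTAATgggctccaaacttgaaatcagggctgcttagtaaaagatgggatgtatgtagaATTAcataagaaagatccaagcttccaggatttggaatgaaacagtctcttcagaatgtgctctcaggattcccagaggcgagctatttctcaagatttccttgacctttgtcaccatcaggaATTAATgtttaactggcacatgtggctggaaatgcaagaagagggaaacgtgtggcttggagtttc
DDC inner start: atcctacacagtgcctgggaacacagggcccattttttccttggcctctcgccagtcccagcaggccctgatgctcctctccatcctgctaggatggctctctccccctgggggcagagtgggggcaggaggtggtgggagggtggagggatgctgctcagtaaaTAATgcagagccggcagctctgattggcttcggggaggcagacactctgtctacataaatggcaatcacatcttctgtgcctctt
The outer window holds 4 matches and the inner 1. Of 35116 RefSeq promoter windows of 300 bases, 50.2% hold at least 1, so a match is common.

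DBH, dopamine beta-hydroxylase, fell far less on its probe than DDC on either of its 2. Its single probe, A_23_P112296, gave 0.641, 0.599, 0.696 and 0.678 in mock replicates 1 to 4 and 0.026, 0.000, 0.022 and 0.093 in the arrays labelled CFC1. Every mock array was higher than every array labelled CFC1. The difference was -0.62 (SE 0.045, adjusted p = 1.54e-05), 1.53-fold, or -0.48 relative to the median of all probes. Quantile normalization reduced it to -0.308 (adjusted p = 0.00713), with the call kept. Over 17 alternatives its adjusted p ran from 3.22e-06, in the fit of gene means, to 0.00713. The 250 bases before its RefSeq start, on the plus strand of GRCh38.p14 (chr9:133636113-133636362), are shown beside those of DDC because both enzymes fell. Capitals again mark ATTA on both strands.
DBH: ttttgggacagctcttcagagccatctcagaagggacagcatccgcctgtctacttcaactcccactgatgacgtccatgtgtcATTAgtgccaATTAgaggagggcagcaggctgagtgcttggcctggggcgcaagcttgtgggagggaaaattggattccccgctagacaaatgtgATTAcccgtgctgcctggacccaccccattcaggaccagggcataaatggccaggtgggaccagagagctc
The window has 3 matches, which begin 166, 156 and 71 bases before the start. It has no full cyclic AMP response element, TGACGTCA, a motif held by 1.85% of all windows.

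CYB561, the granule cytochrome that serves DBH, moved the other way. Its probe A_23_P218331 gave -1.359, -1.543, -1.364 and -1.387 in mock replicates 1 to 4 and -0.138, -0.097, -0.047 and 0.000 in the arrays labelled CFC1. All arrays labelled CFC1 were higher, by 1.34 on average (SE 0.060, adjusted p = 1.13e-06), or 2.54-fold. Its adjusted p stayed between 3.79e-07, in the fit of gene means, and 0.00019 over 17 alternatives. Within arrays, CYB561 minus DBH went from -2.067 ± 0.058 in mock to -0.106 ± 0.041 (SD, n = 4).

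The vesicular transporters behaved differently from one another. SLC18A1, the isoform typical of chromaffin cells, gave 4.184, 4.223, 4.226 and 4.178 with probe A_23_P33168 in mock replicates 1 to 4, and -0.050, 0.455, -0.581 and 0.524 in the arrays labelled CFC1. Mock arrays lay within 0.1 of each other, while arrays labelled CFC1 were spread over more than 1 log2 unit. The difference was -4.12 (SE 0.237, adjusted p = 4.29e-06), larger than for 99.0% of all probes in absolute size. The second probe, A_33_P3403162, gave 2.021, 1.900, 1.775 and 2.267 in mock and 0.000, 0.535, -0.593 and 0.360 in arrays labelled CFC1, a difference of -1.92 (SE 0.249, adjusted p = 0.00042). Both probes placed CFC1 replicate 3 lowest and replicates 2 and 4 highest. The same order was seen in TH probe A_33_P3360997. It held in 14.9% of all probes with an SD of at least 0.4 over these arrays, against 6.38% of the other probes. The within-array gap between both SLC18A1 probes changed by -2.20 (exact permutation p = 0.0286), so here too the probes shifted by unequal amounts.

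SLC18A2, the vesicular transporter of most monoamine neurons, did not pass the test. Its single probe, A_23_P52499, gave 0.936, -0.322, 1.535 and 0.461 in mock replicates 1 to 4 and -0.266, -0.529, -0.422 and 1.061 in the arrays labelled CFC1. The groups overlapped, with replicate 4 labelled CFC1 above 3 mock arrays. The difference was -0.69 (95% interval -1.85 to 0.47, adjusted p = 0.339), and a fall of more than 3-fold or a small rise lie within that interval. The spread of this probe exceeded that of 92.8% of probes over mock arrays and 91.9% over arrays labelled CFC1. Without CFC1 replicate 4 the difference was -1.06 (adjusted p = 0.1), and without mock replicate 3 it was -0.397 (adjusted p = 0.54), the range over 17 alternatives being 0.1 to 0.589.

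SLC6A2, the noradrenaline transporter of the plasma membrane, fell on both probes with little spread. Probe A_33_P3259022 gave 2.176, 2.031, 2.125 and 2.124 in mock replicates 1 to 4 and -0.547, -0.557, -0.586 and -0.556 in the arrays labelled CFC1. Probe A_33_P3394689 gave 0.912, 0.924, 0.983 and 0.948 in mock and -1.356, -1.362, -1.272 and -1.310 in arrays labelled CFC1. Neither probe showed overlap, and arrays labelled CFC1 lay well below the baseline, unlike those of the other 8 genes, whose group means lay between -0.278 and 0.152. The differences were -2.68 (SE 0.046, adjusted p = 1.24e-08) and -2.27 (SE 0.043, adjusted p = 1.8e-08), 6.39-fold and 4.81-fold. The gap between both probes changed by -0.41 within arrays (exact permutation p = 0.0286), and by 0.559 in the opposite direction after quantile normalization.

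MAOA, monoamine oxidase A of the outer mitochondrial membrane, was higher. Its probe A_33_P3242543 gave -1.155, -1.215, -1.043 and -1.065 in mock replicates 1 to 4 and -0.126, -0.119, -0.073 and 0.000 in the arrays labelled CFC1. The groups did not overlap, and the difference was 1.04 (SE 0.058, adjusted p = 3.46e-06), 2.06-fold. After quantile normalization it was 0.841, below 2-fold, with the call kept. The 250 bases before the MAOA start are shown (plus strand of GRCh38.p14, chrX:43656049-43656298), since MAOA rose and has a single start in RefSeq's table. The motif marked is not the one marked for DDC and DBH, so the capitals are no comparison with those genes. Capitals mark the GC box GGGCGG on both strands, known as a binding site of Sp1 factors.
MAOA: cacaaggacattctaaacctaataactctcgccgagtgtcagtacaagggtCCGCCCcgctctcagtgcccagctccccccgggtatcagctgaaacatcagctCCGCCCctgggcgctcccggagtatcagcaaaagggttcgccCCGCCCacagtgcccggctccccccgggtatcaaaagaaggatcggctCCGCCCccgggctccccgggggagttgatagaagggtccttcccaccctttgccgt
The window has 4 GC boxes and 1 ATTA match, and 45.0% of all windows hold at least 1 GC box. In the full 300-base windows, CYB561, which rose, has 4 ATTA matches in window 3 and 2 GC boxes in each of windows 1 and 2. DBH, which fell, has 1 GC box, and SLC18A2, which was not called, has 5. A link of either motif to the direction of change was not tested. Promoter windows were found for 5 of the 9 genes and were not used here for TH, GCH1, SLC18A1 and SLC6A2.

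Neighbouring steps were set against each other within each array, where a scaling factor common to an array cancels. The 8 pairs of gene means were built from these genes, which were chosen with earlier results of these data known. In 7 of the pairs the groups did not overlap. Each of the 7 had the smallest exact permutation p that 4 against 4 arrays allow, 0.0286 (two-sided, 70 arrangements). Adjusted over these 8 pairs and the 5 probe pairs, that p was 0.0371. The single-gene differences above made such separation likely beforehand, and no share over all pairs of genes was computed. DDC minus TH fell from 2.431 ± 0.331 in mock to -0.155 ± 0.411 (SD, n = 4) in the arrays labelled CFC1. DBH minus DDC rose by 1.90, so the DBH probe fell less than the mean of the DDC probes. SLC18A1 minus DBH fell by 2.40 and SLC6A2 minus DBH by 1.85, so the probe means of both transporters fell more than the DBH probe. Probes of one gene shifted apart by similar amounts, with changes of -1.66 for DDC and -2.20 for SLC18A1. These contrasts between genes thus do not rank the falls of their transcripts. MAOA minus SLC6A2, degradation against reuptake, had the largest contrast of the 8 pairs. It went from -2.647 ± 0.056 to 0.864 ± 0.048 (SD, n = 4). GCH1 minus TH was the pair that overlapped (-0.38, exact permutation p = 0.2, adjusted 0.217). With the less variable probe of each gene in place of the mean, it reached -0.719 and the smallest p of 0.0286.

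**Figure D3:**
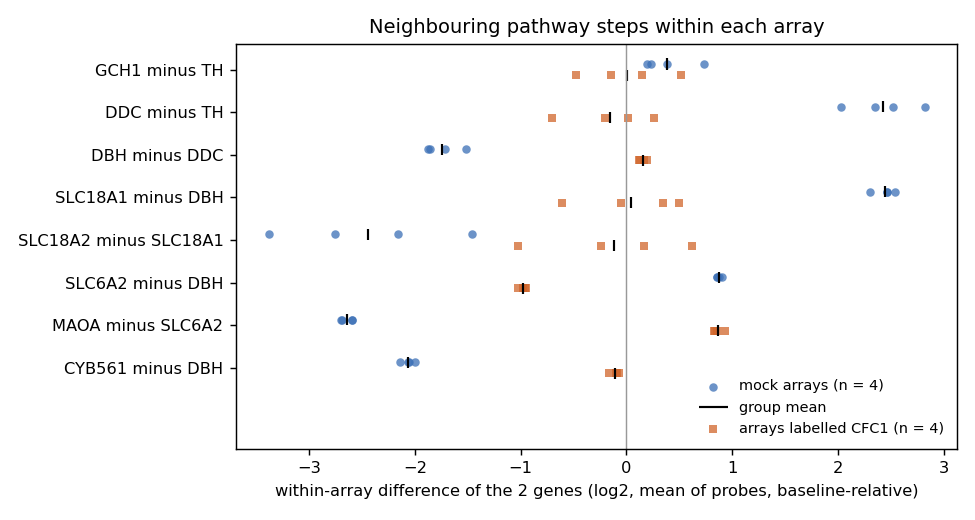
Within-array difference of gene means (log2, horizontal axis) for 8 pairs of neighbouring pathway steps; circles are the 4 mock arrays, squares the 4 arrays labelled CFC1 and short bars the group means. The groups overlap for GCH1 minus TH and are apart for the other 7 pairs.

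Further genes of the pathway were read from a fit of gene means, in which 57.9% of 21524 genes were called, 29.7% higher and 28.2% lower. By gene mean, 7 of the 9 genes passed, 2 higher and 5 lower, and TH and SLC18A2 did not. Around the cofactor, 2 of 6 measured genes rose and 3 fell. GCHFR, the feedback regulator of GTP cyclohydrolase, differed by -1.67 (SE 0.064) and PCBD1, which regenerates the cofactor, by -1.23 (SE 0.044). QDPR, dihydropteridine reductase, differed by -0.88 (SE 0.049), and PTS, the enzyme after GCH1, was higher by 0.99 (SE 0.036). PNMT, which methylates noradrenaline to adrenaline, fell by 1.79 (SE 0.050). It was the single call among 3 measured genes of its list, with the serotonin enzymes TPH1 at 1.67 (adjusted p = 0.173) and TPH2 at -0.14 (adjusted p = 0.528).

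Degradation and uptake genes moved in both directions. Of 6 further degradation genes, 2 rose and 2 fell. MAOB, the second monoamine oxidase, rose by 3.89 (SE 0.420) and RNLS, renalase, fell by 3.40 (SE 0.299). ALDH3A2, a fatty aldehyde dehydrogenase, and AKR1A1, an aldehyde reductase, differed by 0.49 and -0.43. Of 6 other amine transporters, 3 rose and none fell. SLC18B1, a vesicular polyamine transporter, was higher by 5.44, though its probes gave 3.48 and 7.40. SLC29A4, a low-affinity monoamine transporter, rose by 1.06 and SLC6A3, the dopamine transporter, by 0.56.

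The vesicle proton pump makes the gradient that drives amine loading. Of its 17 genes, 8 rose, 4 fell and 5 did not pass, with ATP6AP2 at 0.94, ATP6V0C at 0.87, ATP6V0B at 0.50 and ATP6V1G2 at -0.90. Of 11 genes for copper, ascorbate and tyrosine supply, 7 rose and none fell. SLC7A5 and SLC3A2, the subunits of a large neutral amino acid transporter, were higher by 0.96 and 0.85, and CYB561D2, a relative of CYB561, by 0.79. SLC7A8 averaged 2.67, but its probes gave -0.14 and 5.48. Of 13 adrenergic and dopamine receptors, 4 rose and none fell. DRD4 rose by 2.64 (SE 0.043), ADRA1D by 1.12, DRD3 by 0.84 and ADRA2C by 0.80. ADRA1D stood at 0.125 after quantile normalization and was no longer called. DRD3 missed the threshold when replicate numbers entered as a block (adjusted p = 0.055) and without mock replicate 1 or 2 (adjusted p = 0.0515 and 0.0522), the range over its alternatives being 0.0103 to 0.055.

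Of 11 transcription factors of noradrenergic cells, 8 fell and REST, a repressor of neuronal genes, rose by 0.50. TFAP2B, ISL1, GATA2 and NR4A2 differed by -3.86, -2.18, -1.66 and -1.38. The called share was 83.3% for the cofactor list, 81.8% for the transcription factors, 70.6% for the pump, 66.7% for degradation and 63.6% for copper, ascorbate and tyrosine supply. It was 50% for other amine transporters, 33.3% for the aromatic hydroxylases and PNMT and 30.8% for the receptors, all beside the 57.9% of all genes. These lists and genes were chosen with earlier results of these data known, and their counts are a description.

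**Figure D4:**
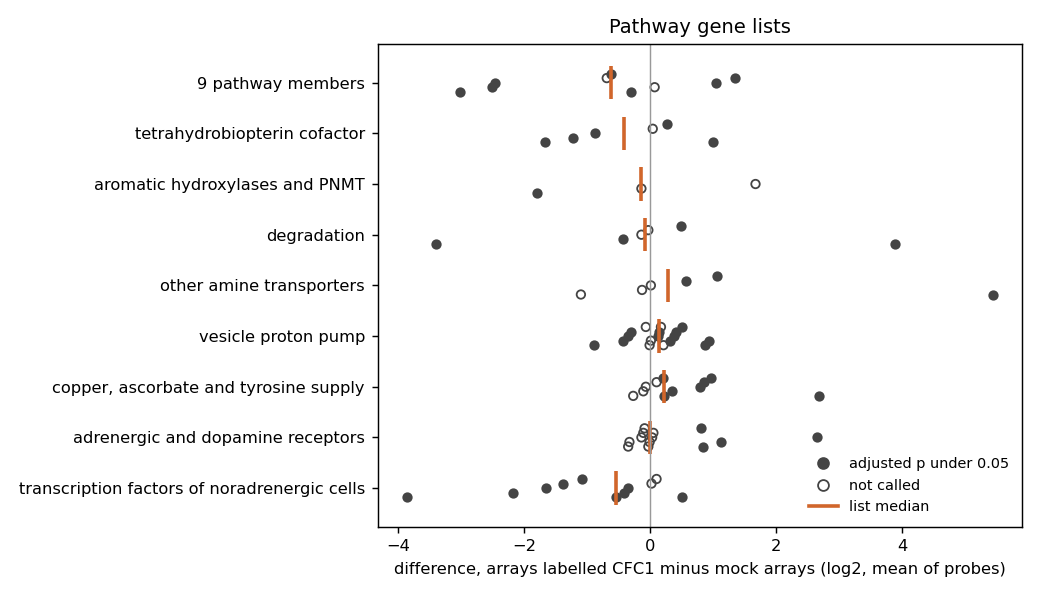
Difference between arrays labelled CFC1 and mock arrays (log2, mean of probes, horizontal axis) for each measured gene of 9 groups; filled points passed an adjusted p of 0.05 and vertical bars are group medians. The medians run from -0.62 for the 9 pathway members to 0.28 for other amine transporters.

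Markers of the neuroblast lineage and of other cell types were counted in the same fit, and their part in the differences above was not tested. Of 9 sympathetic neuroblast markers, 7 were lower and 1 higher (88.9% called, beside 57.9% of all genes). Their summed baseline-relative value ran from 8.99 to 9.51 in mock and from -0.92 to -0.38 in arrays labelled CFC1. The lower sum came mainly from STMN2 (-3.92), CHGB (-2.48), ISL1 (-2.18) and CHGA (-1.14). ELAVL4, HAND2 and GATA3 differed by -0.52, -0.41 and -0.35. NCAM1 was the higher marker (1.01), and PHOX2A did not pass (0.02, limma adjusted p = 0.963). PHOX2A, HAND2, GATA3 and ISL1 are also in the list of transcription factors, so the counts of both lists share those genes. Of 5 fibroblast markers, 4 were lower (80.0%, sums 5.11 to 5.70 against -0.80 to -0.07), among them LUM, a matrix proteoglycan, which was no longer called under median centring or E1A scaling. Of 4 Schwann and glial markers, 3 were lower (75.0%, sums 0.86 to 2.93 against -1.62 to -0.54). Among these, FABP7, a fatty acid binding protein of glia, had overlapping groups and lost its call in 7 of the 8 fits that left out 1 array. S100B, also among them, averaged -1.35 over probes at -2.55 and -0.15. DCN, a fibroblast marker, averaged -1.13 over probes at -2.1 and -0.17. Of 5 cholinergic markers, 2 were higher and 2 lower (80.0%, sums 3.03 to 4.27 against 2.89 to 3.71).

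The remaining marker lists had called shares below that of all genes. Of 4 endothelial markers, KDR, a VEGF receptor, differed by -3.08, while PECAM1 (-0.11), CDH5 (0.08) and VWF (-0.14) did not pass. The lower endothelial sum (2.16 to 3.70 in mock, -0.95 to 1.33 in arrays labelled CFC1) thus came mainly from KDR. Of 4 immune markers, 1 was lower and 1 higher (sums -0.11 to 0.37 against -1.24 to 0.89), and the lower one, CD68, lost its call under each of 3 other scalings. Of 4 adrenal cortex markers, 2 were higher (sums -4.83 to -2.78 against -0.44 to 0.95). The table gives no level by which any of these markers could be called absent.

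The genes whose 8 values lay nearest to those of an enzyme were found by root mean square distance after centring each gene on its own mean. For DBH these were CTIF, NCSTN and NAP1L1, at 0.0131, 0.0175 and 0.0197 log2 units, and 962 genes lay within 0.1, so its pattern was common. For DDC they were SLC16A7, PRKCQ-AS1 and SAMD5, at 0.0484, 0.079 and 0.0799, and 3 genes lay within 0.1. For TH they were TOPAZ1, LINC01350 and POU2F3, at 0.117, 0.131 and 0.132, and no gene lay within 0.1. The TH pattern is a mean of its 2 probes, and its spread comes mostly from A_33_P3360997 (SD 0.544 and 0.716 in the 2 groups). All 3 patterns rest on 8 arrays in 2 groups.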

How the data were processed

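Total RNA was labelled with Cyanine3 for one-color Agilent arrays, per the labels' protocols. The authors deposited 1 value per probe and array, read here as log2. The scaling and the baseline were not given in the sources used here. Of 50739 rows, 140 control spots were left out. Of 50599 probes, 31993 had 1 symbol, updated through the RefSeq gene table of GRCh38.p14, and 18606 had none.

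Groups came from the sample titles. Arrays labelled CFC1 were compared with mock arrays, probe by probe, by lmFit and eBayes of limma 3.58.1 (R 4.3.3, Benjamini-Hochberg over all probes, threshold 0.05, 2-fold as 1 log2 unit). Lists used the mean of a gene's probes. Named were all probes of the 9 genes, up to 4 called genes with the largest change per list, and the 3 genes nearest to TH, DDC and DBH. Within-array differences were tested by exact permutation. Members and lists were chosen with earlier results of these data known. Promoter windows came from RefSeq (GRCh38.p14, 250 bases before to 50 after a start).

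On simulated arrays labelled CFC1 and mock arrays with 50599 probes, 200 of them changed, the 95% intervals covered 95% of the true differences. Of 1-unit changes 57% were recovered, of the smaller ones 24%, and 7 of 88 calls were false. In the data 42.1% of probes were called, far more than were changed here. These recovery shares thus do not carry over to the data. A first criterion on recovery in low-spread probes was replaced by coverage after 92.7% was seen. The number of arrays limits the precision. Alternatives were other scalings, weights, variances, a replicate block, gene means, natural logarithms and leaving out each array.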

Additional observations from a re-analysis of the deposited data

Results flagged for a closer look

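A single array lay far from the other 3 of its group, by Dixon's ratio above its 95% critical value, in 5 of the 122 groups examined, and chance gives about 1 in 20. SLC18A2 stood at 1.061 in CFC1 replicate 4, with the others from -0.529 to -0.266. TH A_33_P3252414 stood at -0.337 in mock replicate 2, with the others from -0.242 to -0.231, and CYB561 at -1.543 in the same array, with the others from -1.387 to -1.359. ALDH3A2 stood at -0.018 in CFC1 replicate 2 (others -0.099 to -0.088). VIP, a neuropeptide among the cholinergic markers, stood at 0.295 in CFC1 replicate 1 (others -0.426 to -0.400).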

How the results depend on the processing

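Of the 14 probes, 12 were called under every setting that left out 1 array, 10 after quantile normalization and 11 with median centring or with the scale set by E1A control spots. Over all 50599 probes, 20144 to 20472 were called with 1 array left out and 18115 after quantile normalization. Median centring gave 18698 and E1A scaling 20321. With the mean of the probes of each gene, 7 of 9 genes and 12456 of all genes were called, against 21289 of 50599 probes, fewer units by construction. The probe-level fit called 5 probes of other amine transporters. Leaving out 1 array gave 1 to 2 calls for the aromatic hydroxylases and PNMT. The second TH probe ran from -0.552 to 0.00805 when 1 array was left out, changing sign without CFC1 replicate 3. The TH gene mean of 0.073 averages this probe with the first. The gap between GCH1 probes (0.01) ran from -0.0921 to 0.0605, turning to -0.0366 and -0.0921 without mock replicate 4 or CFC1 replicate 3. That of SLC6A2 became 0.559 after quantile normalization. GCH1 minus TH reached -0.719 with the less variable probes. The cause of these changes was not tested. Leave-one-out pair differences have no test, since 0.0571 is the smallest p they allow. Read as natural logarithms, all differences are larger and 11223 probes in place of 7911 pass 2-fold. Same-numbered arrays had correlated deviations over probes (r = 0.132, 0.197, 0.0953 and 0.173). Each array correlated best with its own number, a hint from the data and not the design. With the replicate number as a block, 21980 probes and 12 of the 14 were called.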

Other observations

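The following genes were chosen after their values were seen. Markers of acetylcholine use included rises beside the falls of catecholamine genes. CHAT, which makes acetylcholine, was higher in the arrays labelled CFC1 by 2.24 (SE 0.094), and SLC18A3, the vesicular acetylcholine transporter, whose gene lies within the CHAT locus, by 1.04 (SE 0.040). ACHE, acetylcholinesterase, differed by -0.53 and VIP by -2.87, and the choline transporter SLC5A7 by -0.42 (adjusted p = 0.103). Of the steroid synthesis markers, 2 also rose, STAR by 3.28 and CYP11A1 by 1.51, while CYP17A1 (-0.22) and NR5A1 (-0.29) did not pass.

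Neighbours in RefSeq gene order, 5 measured genes on each side, were read for all 9 genes as a description, with no test. Their median difference was -0.41 around DDC (-2.51 by gene mean), -0.06 around SLC18A1 (-3.02), -0.16 around SLC6A2 (-2.47) and -0.11 around SLC18A2 (-0.69). It was 0.19 around DBH (-0.62), -0.04 around GCH1 (-0.30), -0.14 around MAOA (1.04) and -0.18 around CYB561 (1.34). Around TH, the median was -0.22 and the 10 neighbours ran from -3.03 to 3.87. The TH mean of 0.07 averages probes at 0.41 and -0.27, so its small size cannot be set against theirs. Single neighbours stood far out. GRB10, beside DDC, was higher by 7.80, MAOB, beside MAOA, by 3.89, and H19, near TH, by 3.87. IRX5, near SLC6A2, was higher by 3.13. IGF2-AS and IGF2, also near TH, differed by -3.03 and -2.96.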
